A study of Mus musculus with 2 samples.

Results

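The interferon-stimulated antiviral genes described here are 39 mouse genes that cells switch on when interferon reaches its receptor, among them Isg15, the Ifit and Oas families, Rsad2, the interferon regulatory factors and Ifitm3. They were selected by gene symbol, with no threshold on a measured value, but the list was chosen with earlier results of these data known. Of the 39, 37 had a row in both count matrices, out of 32285 genes, and Mx1 and Mx2 were not analysed here. The cells came from the quadriceps of C57 BL/6J mice of wild-type genotype, whose muscle had received 100 µl of 1.2% (w/v) BaCl2, an injected salt that destroys muscle fibres while sparing many of the cells between them. One group was taken 9 h after the injection and the other 2 h after it. Each was a single droplet library of thawed, cryo-preserved mononuclear cells, so muscle fibres themselves were not sampled, and no uninjured muscle was analysed here. The sources used here do not give the age or number of the mice or whether they were pooled. With 1 library per time, no difference below has a replicate check or a test. The intervals given are 95% intervals for counting error alone and treat UMIs, or cells where shares of cells are given, as independent.

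Type I interferons bind the IFNAR receptor, which activates the kinases Jak1 and Tyk2. A complex that holds Stat2 and Irf9 then binds a short element in the promoters of these genes. Interferon gamma binds another receptor and acts at a different element, often by way of Irf1. The products act at successive steps of a viral infection. Some sense foreign RNA or DNA, some block fusion, translation or budding, and some feed back on the pathway. The same genes can also be transcribed in sterile injury, with no virus present.

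To show the elements through which the family is known to be controlled, the bases before the start site of 4 members are printed from the RefSeq promoter table (GRCm38.p6), read in the direction of the gene. Capitals mark matches to GAAANNGAAA on either strand for Isg15, Ifit1 and Rsad2, the core of the element bound by the complex of Stat2 and Irf9. For Irf1 they mark a match to TTCNNNGAA, the core of the element that answers to interferon gamma. The windows are 250 bases long and lie at chr4:156200819-156201068 on the minus strand (Isg15), chr19:34640639-34640888 on the plus strand (Ifit1), chr12:26456453-26456702 on the minus strand (Rsad2) and chr11:53769764-53770013 on the plus strand (Irf1, the first of its 2 starts in the table).
Isg15: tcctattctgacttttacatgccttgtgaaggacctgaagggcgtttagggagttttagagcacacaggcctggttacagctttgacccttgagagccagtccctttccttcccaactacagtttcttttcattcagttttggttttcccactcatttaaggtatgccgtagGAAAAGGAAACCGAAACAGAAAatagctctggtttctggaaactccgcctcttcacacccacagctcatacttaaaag
Ifit1: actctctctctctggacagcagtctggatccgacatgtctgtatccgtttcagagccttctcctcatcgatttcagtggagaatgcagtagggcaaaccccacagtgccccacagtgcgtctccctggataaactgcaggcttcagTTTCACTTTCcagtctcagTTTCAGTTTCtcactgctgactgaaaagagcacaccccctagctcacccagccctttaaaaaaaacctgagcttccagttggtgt
Rsad2: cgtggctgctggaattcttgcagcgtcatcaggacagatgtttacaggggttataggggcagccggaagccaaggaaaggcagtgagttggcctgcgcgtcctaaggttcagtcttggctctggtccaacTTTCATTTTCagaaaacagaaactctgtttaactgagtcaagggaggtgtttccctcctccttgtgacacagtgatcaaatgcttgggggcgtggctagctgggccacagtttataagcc
Irf1: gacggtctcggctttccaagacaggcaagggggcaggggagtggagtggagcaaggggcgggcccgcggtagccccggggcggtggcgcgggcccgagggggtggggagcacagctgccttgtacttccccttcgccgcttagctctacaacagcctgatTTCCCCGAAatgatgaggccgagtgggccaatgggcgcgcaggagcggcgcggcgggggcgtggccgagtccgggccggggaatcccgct
The Isg15 window held 3 overlapping matches to GAAANNGAAA, the Ifit1 window 2 and the Rsad2 window 1. In the table's full windows (250 bases before and 50 after each start, both strands), 15 of the 28 members with an entry held GAAANNGAAA (53.6%), against 3.99% of 27025 genes. TTCNNNGAA was in 8 of the 28 members (28.6%), against 9.55% of genes. A match is a description of the letters, and its absence says nothing about binding.

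After filters, 8147 cells remained at 9 h (median depth 2327 UMIs, counts of distinct RNA molecules) and 4900 at 2 h (median depth 4519 UMIs). Cells were clustered with the members and other interferon-response genes left out, and clusters were named from marker genes, so that each class is called "like" its cell type. Of the classes, 6 had at least 100 cells in each library. At 9 h there were 2383 FAP-like cells (FAPs are fibro-adipogenic progenitors, mesenchymal cells of the muscle interstitium), 3576 neutrophil-like, 507 endothelial-like, 357 monocyte-like, 239 resident macrophage-like and 111 dendritic-like cells. At 2 h there were 2020 FAP-like, 1629 neutrophil-like, 262 endothelial-like, 172 monocyte-like, 322 resident macrophage-like and 139 dendritic-like cells. Endothelial, monocyte, resident macrophage and dendritic-like cells each formed 1 cluster that held cells of both libraries. A finer clustering (Leiden resolution 2) split 2 of these classes by time. Its endothelial-like cluster held 67 cells at 9 h and 245 at 2 h, while a cluster of 407 and 16 cells, with haemoglobin genes beside endothelial genes among its leaders, got no name. Its 2 monocyte-like clusters held 108 and 247 cells at 9 h and 162 and 10 at 2 h. Over those 67 and 245 endothelial-like cells, 14 of 16 measured members were at least 2-fold lower at 9 h. FAP-like and neutrophil-like cells lay mostly in different clusters at the 2 times. The libraries shared 20 barcodes, and removing them moved no count of members past 2-fold by more than 1.

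CPM below means UMIs of a gene per 1000000 UMIs summed over the cells of one class in one library. Each molecule is read once at its 3′ end, so CPM carries no term for gene length. Summed over the 37 members, the level was lower at 9 h in each of the 6 classes. It was 3621 CPM at 9 h against 7349 CPM at 2 h in endothelial-like cells, and 4230.1 against 8058 CPM in monocyte-like cells. Neutrophil-like cells had 1121 CPM at 9 h against 3707 CPM at 2 h, and this ratio was the furthest from 1 of the 6, with the 9 h level 3.31-fold lower (3.21 to 3.40). In FAP-like cells the sum was 3813 CPM at 9 h against 5238 CPM at 2 h, 1.37-fold lower (1.36 to 1.39).

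In several classes 4 members, Ifitm3, Ifi203, Ifi204 and Ifi27l2a, held most of these UMIs, and the sum without them was set apart after their values had been seen. The other 33 members came to 739 CPM at 9 h against 4148 CPM at 2 h in endothelial-like cells, 5.62-fold lower at 9 h (5.26 to 6.00). They came to 392 against 1325 CPM in FAP-like cells, 3.38-fold lower at 9 h (3.29 to 3.47), and to 637 against 2156 CPM in neutrophil-like cells, 3.39-fold lower at 9 h (3.26 to 3.52). Myeloid classes other than neutrophils showed smaller ratios. The 33 members came to 710.0 CPM at 9 h against 1757 CPM at 2 h in monocyte-like cells. They came to 743 against 1307 CPM for resident macrophage-like cells and to 689.9 against 998 CPM for dendritic-like cells. At 2 h the endothelial-like cells thus stood apart from the other 5 classes, whose sums lay between 998 and 2156 CPM, whereas at 9 h all 6 lay between 392 and 743 CPM.

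**Figure D1:**
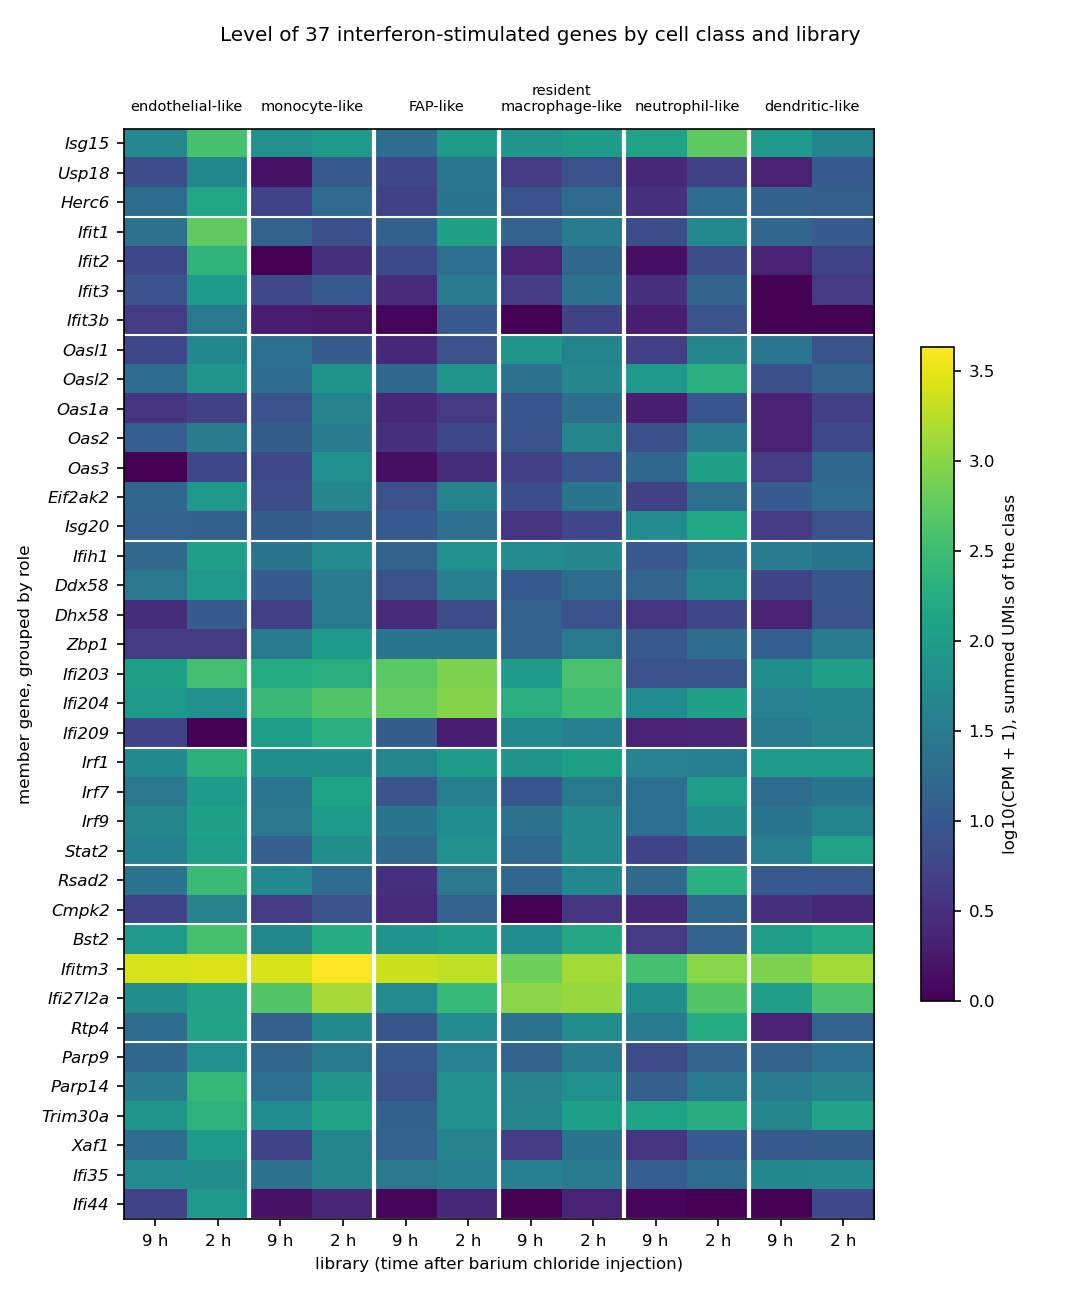
Level of each of the 37 members as log10(CPM + 1) of summed UMIs, with members down the page by role and the 6 classes across, 9 h left of 2 h in each. The endothelial-like column at 2 h is bright for Isg15, Ifit1, Ifit2 and Rsad2 (303 to 560.1 CPM for 3 of these and 231 CPM for Ifit2), while Ifitm3 is bright in most columns.

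Members were then read one by one. A member counts as measured in a class with at least 100 UMIs over both libraries, and as lower or higher when log2((CPM + 10) at 9 h / (CPM + 10) at 2 h) passes 2-fold. In endothelial-like cells 20 of 24 measured members were lower at 9 h and 0 higher, where 7.97% of all 3888 measured genes were lower and 7.79% higher. Their median log2 ratio was -1.88, against 0.06 over all genes. In neutrophil-like cells 14 of 21 were lower and 0 higher (5.90% and 4.51% of all genes), with a median of -1.25 against -0.10. In FAP-like cells 18 of 34 were lower and 0 higher (9.22% and 7.38% of all genes), with a median of -1.21 against 0.00.

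The myeloid classes had fewer measured members. In monocyte-like cells 9 of 18 were lower and 1, Rsad2, higher (6.26% and 4.51% of all genes), with a median log2 ratio of -0.99 against -0.09. In resident macrophage-like cells 8 of 19 were lower and 0 higher (7.62% and 4.17% of all genes), with a median of -0.79 against 0.02. In dendritic-like cells 3 of 9 were lower and 0 higher (5.63% and 5.95% of all genes), with a median of -0.70 against -0.00. The share of members that were lower was thus above the background share in each of the 6 classes, with the dendritic-like one resting on the smallest number of members. Because the members were chosen with earlier results of these data known, this is a description and not a test.

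The counts of lower members change little with the scaling, while the medians of the members and of all genes shift together. With TMM scaling the median of all genes moved by more than 0.1 in neutrophil-like cells (to 0.04), monocyte-like cells (to 0.10) and dendritic-like cells (to -0.12). The medians of the members moved with it, to -1.09, -0.81 and -0.83 in the same order. The split of all-gene calls then changed to 4.17% lower and 5.90% higher in neutrophil-like cells and to 3.81% and 6.75% in monocyte-like cells. It changed to 7.70% lower and 9.40% higher in FAP-like cells and to 7.52% and 4.76% in dendritic-like cells. With TMM, the members that were lower numbered 12 in neutrophil-like, 8 in monocyte-like, 18 in FAP-like and 3 in dendritic-like cells.

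Markers of other cell types also differed between the times within some classes. Summed over 12 neutrophil markers, all with UMIs, the level was 9414 CPM at 9 h against 6271 CPM at 2 h in endothelial-like cells and 2312 against 1533 CPM in FAP-like cells. The 14 FAP markers, all with UMIs, came to 26040 CPM at 9 h against 65602 CPM at 2 h in FAP-like cells themselves, and to 3280.3 against 1510.1 CPM in endothelial-like cells. The 12 endothelial markers came to 19819 CPM at 9 h against 21193 CPM at 2 h in endothelial-like cells. Among leukocyte classes, the 14 FAP markers came to 1137 CPM at 9 h against 5393 CPM at 2 h in resident macrophage-like cells, 177 against 1641 CPM in monocyte-like cells and 296 against 849 CPM in neutrophil-like cells. In dendritic-like cells they were the other way round, at 1931 CPM at 9 h against 510.2 CPM at 2 h. The neutrophil markers came to 4127 CPM at 9 h against 1417 CPM at 2 h in dendritic-like cells, 7846 against 3915 CPM in monocyte-like cells and 1504 against 1755 CPM in resident macrophage-like cells. The part of these differences in the members' values was not tested.

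**Figure D2:**
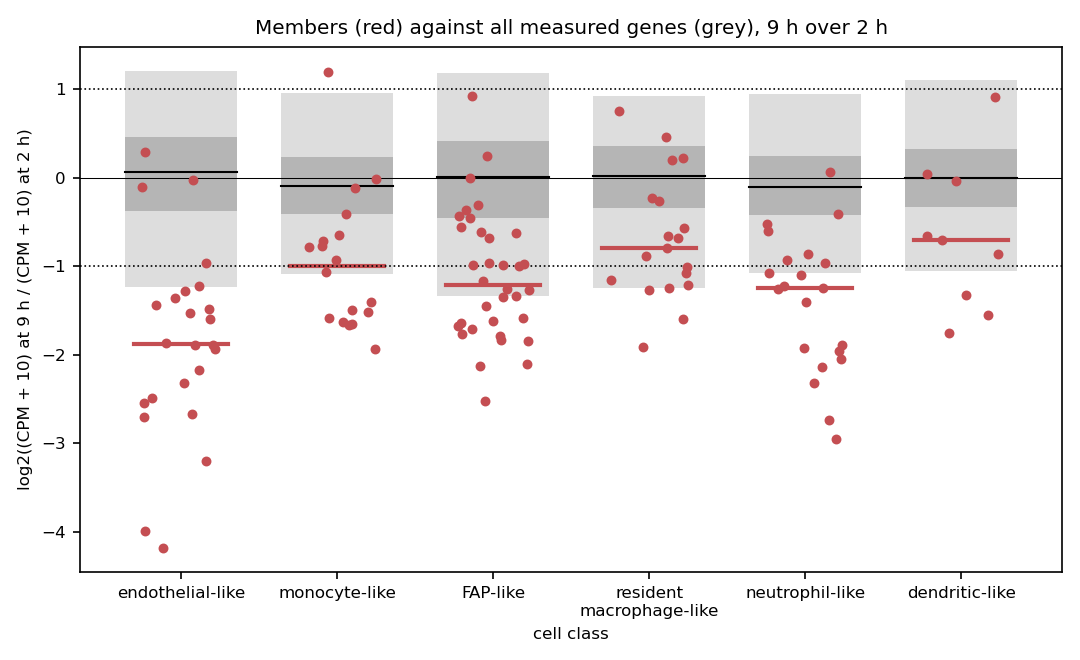
Log2 ratio of 9 h over 2 h (pseudocount 10 CPM) for each measured member (red points, red line at their median) in the 6 classes, over all measured genes (light grey from the 5% to the 95% quantile, dark grey between the quartiles, black line the median). Dotted lines mark 2-fold, and the red medians lie between -1.88 in endothelial-like and -0.70 in dendritic-like cells.

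Across classes, 35 members were measured in at least 1 of the 6 and 6 members in all 6. Of the 35, 25 had a log2 ratio below 0 wherever they were measured, and 12 were at least 2-fold lower wherever they were measured. The same counts over all genes were not made, so these have no background share. Within single classes, 45.8% to 58.3% of all measured genes had a log2 ratio below 0. Only 3 of those 12 were measured in 4 or more classes, namely Stat2 (5 classes), Irf7 (4) and Rtp4 (4). At the other end, Ifi35, a small interferon-induced protein that binds its partner Nmi, was measured in all 6 classes and stayed within 2-fold in each. Ifi204 and Ifi209 stayed within 2-fold wherever they were measured, in 5 and 3 classes, although at a finer clustering Ifi204 had a log2 ratio of -1.93 in endothelial-like cells. For Ifi209 in FAP-like cells this rests on the pseudocount of 10 CPM, as its CPM alone was far over 2-fold higher at 9 h.

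The ubiquitin-like system comprised Isg15, a small protein that is joined to other proteins, Herc6, the ligase that does so in mouse, and Usp18, the protease that removes it. Isg15 had 49.9 CPM at 9 h against 371 CPM at 2 h in endothelial-like cells, 7.43-fold lower (5.79 to 9.63). It had 122 against 534 CPM in neutrophil-like cells and 19.6 against 95.2 CPM in FAP-like cells. Isg15 was thus over 4-fold lower at 9 h in these 3 classes. In monocyte-like cells it had 64.6 CPM at 9 h against 89.3 CPM at 2 h, while resident macrophage-like cells had 79.8 against 98.0 CPM, both within 2-fold. In dendritic-like cells it had 89.9 CPM at 9 h against 42.9 CPM at 2 h, a log2 ratio of 0.92. Herc6 had 18.2 against 148 CPM in endothelial-like and 4.08 against 23.8 CPM in FAP-like cells, and Usp18 had 4.94 against 25.6 CPM in FAP-like cells, the one class in which it was measured.

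The Ifit genes encode proteins that hold RNA with foreign ends, and 4 of them lie side by side on chromosome 19 between 34550694 and 34650009 (mm10, GENCODE M21). Ifit1 and Ifit2 gave the lowest log2 ratios of all measured members, -4.18 and -3.99, both in endothelial-like cells. In endothelial-like cells Ifit1 had 21.4 CPM at 9 h against 560.1 CPM at 2 h, 26.2-fold lower (18.4 to 38.4). Ifit2 there had 5.19 against 231 CPM, 44.5-fold lower (22.2 to 104) from 8 UMIs at 9 h and 221 at 2 h. Ifit3 there had 7.78 against 94.1 CPM. All 3 were thus over 10-fold lower at 9 h in this class. In FAP-like cells Ifit1 had 12.6 CPM at 9 h against 119.9 CPM at 2 h, and Ifit3 1.94 against 29.0 CPM. Ifit3b had 3 UMIs at 9 h and 163 UMIs at 2 h in FAP-like cells, a ratio of 65.7-fold (22.1 to 322) from few counts. Ifit3 and its near copy Ifit3b share sequence, and the counts do not show how reads were split between them.

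The Oas genes make the messenger that switches on RNase L, Eif2ak2 (PKR) stops translation, and Isg20 is an exonuclease. In neutrophil-like cells 5 of the 7 genes of this group were measured, and all 5 were lower at 9 h. Oas3 had 16.1 CPM at 9 h against 120.2 CPM at 2 h in them, Oasl1 3.87 against 44.0 CPM, Oasl2 84.3 against 189 CPM and Isg20 54.8 against 145 CPM. Eif2ak2 had 15.6 against 84.6 CPM in endothelial-like and 6.88 against 41.8 CPM in FAP-like cells. Oasl1, in mouse a brake on the translation of Irf7, went the other way in resident macrophage-like cells, with 77.8 CPM at 9 h against 41.9 CPM at 2 h and a log2 ratio of 0.76, within 2-fold.

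Among the sensors, Ifih1 (MDA5), Ddx58 (RIG-I) and Dhx58 (LGP2) recognise RNA, Zbp1 recognises nucleic acid in the left-handed form, and the Ifi200 family recognises DNA. Ifih1 had 16.9 CPM at 9 h against 111 CPM at 2 h in endothelial-like cells and 13.6 against 65.0 CPM in FAP-like cells. It had 55.8 against 46.4 CPM in resident macrophage-like cells, where it did not pass 2-fold in either direction. Ddx58 was lower in each of the 3 classes where it was measured, with 26.6 against 88.8 CPM in endothelial-like cells.

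Among the Ifi200 genes, the ratios differed between classes. Ifi203 had 507 CPM at 9 h against 821 CPM at 2 h in FAP-like cells, and Ifi204 had 587 against 909 CPM there, both within 2-fold. In endothelial-like cells Ifi203 had 117 CPM at 9 h against 345 CPM at 2 h and was 2.95-fold lower (2.46 to 3.56). In resident macrophage-like cells Ifi203 had 97.3 against 394 CPM and was 4.05-fold lower (3.40 to 4.85), with a log2 ratio of -1.91, the lowest of that class. Summed FAP markers in the resident macrophage-like cells were 1137 CPM at 9 h against 5393 CPM at 2 h, and their part in this value was not tested. Ifi209 had 10.7 CPM at 9 h against 0.924 CPM at 2 h in FAP-like cells, from 210 and 15 UMIs, and its log2 ratio of 0.92 was the highest of that class. The pseudocount of 10 CPM keeps this ratio within 2-fold, while its CPM alone was far over 2-fold higher at 9 h. These genes are near copies of each other, and Ifi203 overlaps Mndal on the same strand, so their counts are uncertain.

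Of the 4 transcription factors, all were lower in endothelial-like cells, and 2 of 4 in FAP-like, 2 of 3 in neutrophil-like, 3 of 4 in monocyte-like, 1 of 3 in resident macrophage-like and 1 of 2 in dendritic-like cells. Stat2, which acts with Irf9, was lower in each of the 5 classes where it was measured, with 38.9 CPM at 9 h against 109 CPM at 2 h in endothelial-like cells, 16.2 against 68.6 CPM in FAP-like cells and 34.8 against 121 CPM in dendritic-like cells. Irf7, the factor that amplifies type I interferon, had 25.7 against 127 CPM in monocyte-like cells, 4.92-fold lower (3.59 to 6.82) and with a log2 ratio of -1.93 the lowest of that class. It had 20.5 against 106 CPM in neutrophil-like and 27.2 against 97.2 CPM in endothelial-like cells. Irf1 differed from the other 3. It had 51.2 CPM at 9 h against 217 CPM at 2 h in endothelial-like cells, but 39.3 against 37.1 CPM in neutrophil-like and 63.1 against 64.0 CPM in monocyte-like cells. In dendritic-like cells the log2 ratio of Irf1 was 0.04. In FAP-like cells Irf1 had 45.3 against 100.1 CPM, a log2 ratio of -0.99, just inside 2-fold. Irf9 overlaps Rnf31 on the same strand.

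Rsad2 (viperin) makes a nucleotide that ends viral RNA chains, and Cmpk2, its neighbour on chromosome 12 (Rsad2 at 26442746 to 26456452 on the minus strand, Cmpk2 at 26469204 to 26479837 on the plus strand, mm10), supplies the substrate. Rsad2 had 24.0 CPM at 9 h against 303 CPM at 2 h in endothelial-like cells, 17.2 against 201 CPM in neutrophil-like cells and 2.04 against 27.6 CPM in FAP-like cells. It was thus over 10-fold lower at 9 h in all 3. In neutrophil-like cells its log2 ratio of -2.96 was the lowest of the 21 measured members. In monocyte-like cells it had 53.9 CPM at 9 h against 17.9 CPM at 2 h. Of the 111 UMIs behind the 9 h value, 69 came from 1 cell, and 9 of 357 cells held any. Without the top cell in each library the values were 20.9 and 12.4 CPM, a log2 ratio of 0.46, and no member was then higher in this class. Summed neutrophil markers in the monocyte-like cells were 7846 CPM at 9 h against 3915 CPM at 2 h, and their part in this value was not tested.

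The membrane-bound members are Ifitm3, Bst2, Ifi27l2a and Rtp4. Ifitm3, which blocks the fusion of virus in endosomes, had the highest level of all members over the kept cells of each library. Outside leukocytes it stayed within 2-fold. It had 2617 CPM at 9 h against 2657 CPM at 2 h in endothelial-like cells and 2273 against 1909.7 CPM in FAP-like cells, a log2 ratio of 0.25. In leukocytes it was lower at 9 h, with 361 against 972 CPM in neutrophil-like, 671 against 1362 CPM in resident macrophage-like, 2617 against 4296 CPM in monocyte-like and 815 against 1329.9 CPM in dendritic-like cells. The first 2 of these leukocyte classes passed 2-fold.

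Bst2 (tetherin), which holds budding virus at the surface, had 90.8 CPM at 9 h against 376 CPM at 2 h in endothelial-like cells, but 72.2 against 101 CPM in FAP-like cells. Ifi27l2a, of the Ifi27 family of membrane proteins, had 55.0 against 273 CPM in FAP-like, 59.8 against 455 CPM in neutrophil-like and 452 against 1379 CPM in monocyte-like cells. In resident macrophage-like cells it had 1000.5 CPM at 9 h against 1173 CPM at 2 h. Rtp4, a receptor transporter protein, had 18.2 against 131 CPM in endothelial-like and 30.8 against 169.6 CPM in neutrophil-like cells. It was lower in each of the 4 classes where it was measured.

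The remaining members include 2 enzymes of ADP-ribosylation, a TRIM protein and a partner of the apoptosis inhibitor XIAP. Parp14 had 32.4 CPM at 9 h against 265 CPM at 2 h in endothelial-like cells, 7.54 against 65.5 CPM in FAP-like cells and 20.4 against 84.1 CPM in monocyte-like cells. Trim30a, a restraint on Toll-like receptor signalling in mouse, was lower in 5 of 6 classes, with 43.8 against 125 CPM in dendritic-like cells. Neutrophil-like cells were the exception, with 126 CPM at 9 h against 185 CPM at 2 h. Xaf1 had 19.5 against 97.2 CPM in endothelial-like and 12.8 against 41.4 CPM in FAP-like cells. Ifi44 and Oas1a reached 100 UMIs in none of the 6 classes, and Ifi44 had 4.54 CPM at 9 h against 85.7 CPM at 2 h in endothelial-like cells, from 7 and 82 UMIs.

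Ranked over the 6 classes within each library, endothelial-like cells held the highest level of the largest number of members. At 9 h they were highest for 16 of the 37 members, followed by neutrophil-like and resident macrophage-like cells with 6 each, monocyte-like with 4, FAP-like with 3 and dendritic-like with 2. At 2 h they were highest for 21, followed by monocyte-like cells with 7, neutrophil-like with 5, FAP-like with 2, and resident macrophage-like and dendritic-like with 1 each. Intervals of neighbouring classes can overlap, so these counts are an order of the measured values.

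The next question was whether single cells carried several members at once. Each cell was thinned to 1000 UMIs, since deeper cells show more genes, and a member counted as carried with at least 1 UMI. In endothelial-like cells 21.1% (17.5 to 25.1; 98 of 464) carried 3 or more members at 9 h, against 67.5% (61.2 to 73.3; 164 of 243) at 2 h. In neutrophil-like cells the shares were 7.23% (6.37 to 8.17) at 9 h against 38.2% (35.7 to 40.6) at 2 h, and in FAP-like cells 27.7% (25.9 to 29.6) against 51.0% (48.7 to 53.2). The intervals of the 2 times do not overlap in any of these 3 classes. They count cells within 1 library per time, so they hold no spread between libraries and do not test the times. Unthinned, the shares were 46.0% against 90.8%, 18.6% against 61.8% and 86.4% against 94.2%, at median depths of 2429 and 3150 UMIs in endothelial-like, 1668 and 2013 in neutrophil-like and 8219 and 7955 in FAP-like cells.

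The same order held in the myeloid classes. The thinned share with 3 or more members was 31.4% (26.6 to 36.6) at 9 h against 66.1% (58.5 to 73.1) at 2 h in monocyte-like cells. It was 27.2% (21.5 to 33.4) against 54.0% (48.3 to 59.6) for resident macrophage-like cells and 8.41% (3.92 to 15.4) against 29.2% (21.7 to 37.6) for dendritic-like cells. Satellite-like cells, the muscle stem cell class, are given as a reference with few members per cell. Free RNA was not estimated, so they do not measure what it adds to any class. There, 0 of 65 cells carried 3 or more at 9 h, with an exact upper limit of 5.52%, against 4 of 77 (5.19%) at 2 h, at median depths of 3361.5 and 3790.0 UMIs. The interval of the dendritic-like share at 9 h overlaps that of the satellite-like cells.

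Cells with many members were rare at 9 h and, at 2 h, had their highest share in the endothelial-like class. There, 1 of 464 cells (0.216%) at 9 h carried 8 or more members, against 38 of 243 (15.6%) at 2 h. In FAP-like cells the counts were 10 of 2331 (0.429%) against 58 of 1996 (2.91%), and in neutrophil-like cells 8 of 3304 (0.242%) against 41 of 1533 (2.67%). Leaving out Ifitm3, Ifi203, Ifi204 and Ifi27l2a lowers the shares with 3 or more members, and they stay lower at 9 h than at 2 h. The order of the classes changes, with FAP-like cells then the lowest of these 3 at both times. Then 7.33% of endothelial-like cells at 9 h carried 3 or more, against 46.9% at 2 h, and 3.15% against 22.1% of neutrophil-like and 2.49% against 13.1% of FAP-like cells.

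**Figure D3:**
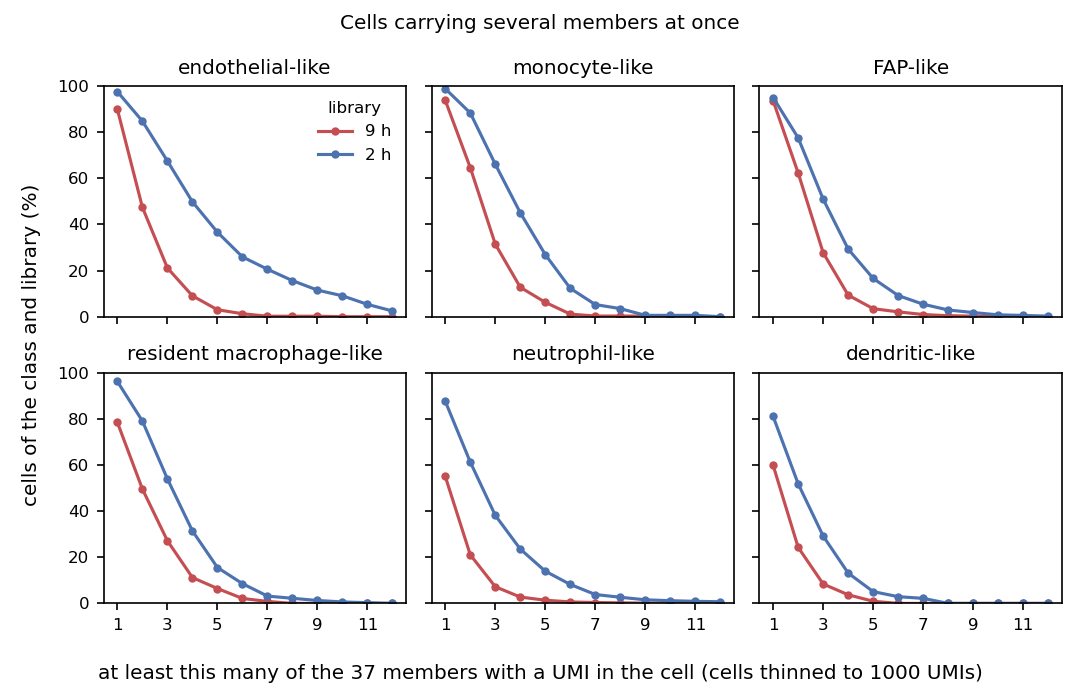
Share of cells (%) with a UMI of at least the given number of the 37 members, after thinning to 1000 UMIs, in the 6 classes, red for 9 h and blue for 2 h. At 3 members the 9 h point lies below the 2 h point in every panel, and the endothelial-like line at 2 h is still at 15.6% for 8 members.

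The members' UMIs were unevenly spread over cells. Without the 4 most abundant members, the tenth of thinned cells with most member UMIs held 44.1% of them at 9 h against 38.4% at 2 h in endothelial-like cells, 53.3% against 43.0% in neutrophil-like cells and 60.4% against 46.3% in FAP-like cells. The largest number of members in 1 thinned cell was 9 at 9 h against 16 at 2 h in endothelial-like cells, 14 against 22 in neutrophil-like cells and 11 against 16 in FAP-like cells.

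Pairs of members show which were carried together. Among endothelial-like cells at 2 h, Ifit1 was in 64.7% (50.1 to 77.6) of the 51 cells with Isg15 and in 19.3% (13.9 to 25.6) of the 192 cells without it. Rtp4 was in 31.4% of cells with Isg15 and 7.81% without, Oasl2 in 27.5% and 5.73%, and Parp14 in 35.3% and 16.1%. Ifit2 was in 27.1% of the 70 cells with Ifit1 and in 5.20% of the 173 without, and Ifit3 was in 21.4% and 5.20%. The intervals of both shares do not overlap for any of these pairs, so these members went together by cell. The intervals overlap for Rsad2, in 21.6% of cells with Isg15 and 10.9% without, for Bst2, at 27.5% and 26.6%, and for Irf7, at 9.80% and 8.85%. They also overlap for Herc6, at 17.6% and 11.5%, for Ifitm3, at 94.1% and 83.9%, and for Oas3, at 1.96% and 0.0%. The same holds for Ifi204 with and without Ifi203 (11.9% and 5.43%) and for Ifi203 with and without Ifitm3 (25.4% and 17.6%). Pairs whose intervals overlap thus outnumber those whose intervals do not.

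In the other classes the same pairs were read. Among neutrophil-like cells at 9 h, Rsad2 was in 5.07% (2.80 to 8.36) of the 276 cells with Isg15 and 0.826% (0.535 to 1.22) of those without. At 2 h it was in 20.2% (16.5 to 24.3) of 426 cells with Isg15 and 6.50% (5.12 to 8.12) of those without. This pair was thus found together at both times, and the cells with Isg15 were fewer at 9 h, at 8.35% of thinned cells against 27.8% at 2 h. Oas3 at 9 h was in 3.99% (2.01 to 7.02) of the 276 neutrophil-like cells with Isg15 and 1.19% (0.834 to 1.64) of those without. At 2 h it was in 51 of 426 with Isg15 and 104 of 1107 without (9.39%), with intervals that overlap. Among FAP-like cells at 2 h, Ifit1 was in 21.2% (14.1 to 29.9) of 113 cells with Isg15 and 6.85% (5.75 to 8.09) of the others. At 9 h only 33 FAP-like cells carried Isg15 and 1 of them carried Ifit1, too few for a comparison. For reference, Isg15 was in 1 of 65 satellite-like cells at 9 h and 1 of 77 at 2 h.

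Cells that carried more members also had higher levels of most measured interferon-response genes outside the list. Among endothelial-like cells at 2 h, the GTPase Iigp1 had 2494 CPM in the 89 cells with 5 or more members, 855 CPM in the 117 cells with 2 to 4 and 243 CPM in the 37 cells with 0 or 1, all thinned alike. Sp100, a nuclear body protein, had 607, 154 and 27.0 CPM in the same order. Of 23 other interferon-response genes with at least 10 UMIs, 21 were higher in cells with 5 or more members than in those with 0 or 1. Of all genes outside the list with at least 10 UMIs in these cells, 48.4% were higher in the cells with 5 or more members. A gene low in one group can reach 10 UMIs through the other group alone, which in part sets its direction. The 1 interferon receptor gene with enough UMIs was not among them. Actb (beta-actin) had 6382, 6077 and 7378 CPM in the same groups. Median depths before thinning were 3575 UMIs in the cells with most members and 3103 in those with fewest.

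Neutrophil-like and FAP-like cells gave the same direction. Among neutrophil-like cells at 2 h, Slfn4 had 1752 CPM in the 214 cells with 5 or more members and 468 CPM in the 594 cells with 0 or 1, and 31 of 34 other interferon-response genes were higher in the cells with most members, against 45.1% of all genes. Of 5 interferon receptor genes, 4 were higher in them. Among FAP-like cells at 2 h, 40 of 45 such genes and 13 of 13 inducible GTPases and chemokines were higher in the 331 cells with most members than in the 449 with fewest, against 39.9% of all genes. Only 2 of 5 interferon receptor genes were higher there. The chemokine Cxcl10 had 224 CPM in them against 6.68 CPM. It thus reached 10 UMIs through the group where it was high, so its direction was in part set by that filter. At 9 h the 81 FAP-like cells with 5 or more members showed the same direction for 28 of 28 and 10 of 10 genes, against 879 cells with 0 or 1, and for 3 of 5 receptor genes. Of all genes, 44.8% were higher in those 81 cells. In the 46 neutrophil-like cells with 5 or more members at 9 h, 32 of 42 other interferon-response genes were higher. So were 3 of 3 GTPases and chemokines, against 40.9% of all genes. In the 14 such endothelial-like cells 15 of 19 were higher, against 45.2% of all genes, and no GTPase or chemokine reached 10 UMIs. Satellite-like cells carried 5 or more members in 0 of 65 cells at 9 h and 1 of 77 at 2 h.

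The pathway around the members was read from lists of genes in the same way. Of 67 other interferon-response genes, those lower and higher at 9 h numbered 12 and 3 of 24 measured in endothelial-like cells, 14 and 2 of 33 in neutrophil-like, 15 and 1 of 53 in FAP-like, 16 and 0 of 31 in monocyte-like, 9 and 0 of 27 in resident macrophage-like and 4 and 2 of 20 in dendritic-like cells. Of all measured genes in these classes, in the same order, 7.97%, 5.90%, 9.22%, 6.26%, 7.62% and 5.63% were lower. The shares that were higher were 7.79%, 4.51%, 7.38%, 4.51%, 4.17% and 5.95%. The 21 listed GTPases and chemokines, many of which also answer to interferon gamma, were most uniform in endothelial-like cells, where 8 of 8 were lower. Iigp1 had 49.3 CPM at 9 h against 1138 CPM at 2 h there, 23.1-fold lower (18.3 to 29.5), Irgm1 13.6 against 225 CPM and Gbp4 16.9 against 169 CPM. In FAP-like cells 6 of 13 were lower. Cxcl10 had 217 CPM at 9 h against 91.6 CPM at 2 h in monocyte-like cells and 311 against 184 CPM in resident macrophage-like cells, and of these only the first passed 2-fold.

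Receptors and ligands gave few differences. Of 6 receptor genes, 5 were measured in each of 5 classes and 3 in endothelial-like cells. Ifngr1, a chain of the interferon gamma receptor, was lower at 9 h in monocyte-like cells (161 against 400 CPM) and dendritic-like cells (96.6 against 231 CPM), and the other measured receptor genes stayed within 2-fold. Ifnar1, a chain of the type I receptor, had 50.5 CPM at 9 h against 42.3 CPM at 2 h in neutrophil-like cells, and Ifnar2, the other chain, had 98.9 against 99.1 CPM there and 88.2 against 98.2 CPM in endothelial-like cells. Socs3, a feedback inhibitor, had 279 against 858 CPM in endothelial-like and 336 against 777 CPM in FAP-like cells.

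Of 13 interferon ligand genes, 9 had no UMI in either library. Ifng had 147 UMIs at 2 h in 29 of 102 T or NK-like cells, 33 of them in 1 cell, and none in 36 such cells at 9 h. The make-up of this class differed between the times. At Leiden resolution 2, its cluster with Ifng among the leading genes held 10 cells at 9 h and 74 at 2 h. The other, with Gata3 and Il5 among its leaders, held 26 and 28. Ifnb1 had 15 UMIs in 6 of 239 resident macrophage-like cells at 9 h and 20 UMIs in 9 of 322 at 2 h, 9 of these in 1 cell. Ligand UMIs were thus few, and those of Ifng were almost all in 1 class and library. Markers of plasmacytoid dendritic cells, a known source of type I interferon, summed to at most 5.95 CPM in endothelial-like, FAP-like, neutrophil-like and monocyte-like cells, where 1 to 4 of the 5 had a UMI and Klk1 had none. They came to 79.8 CPM at 9 h against 123 CPM at 2 h in dendritic-like cells. In resident macrophage-like cells they came to 0.648 CPM at 9 h, with 1 of the 5 detected, against 37.5 CPM at 2 h, with 4 of the 5.

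FAP-like and neutrophil-like cells were split by cluster because the clusters differ between the times. The 33 members without the 4 most abundant came to 262 CPM (253 to 270.2) in FAP-like cluster 9, led by Cxcl5 and Ccl2 and holding 1683 of the 9 h cells. They came to 754 CPM (717 to 793) in cluster 10, led by Krtdap, and to 689 CPM (661 to 718) in cluster 11, led by Saa1. At 2 h they came to 1298 CPM (1267 to 1330) in cluster 0, which includes Pi16 among its leading genes, and to 1338 CPM (1317 to 1360) in cluster 1, led by Col15a1. FAP-like cells of 9 h thus differed among themselves by cluster, but each of the 3 clusters lay below both 2 h clusters.

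Neutrophil-like cluster 5 held cells of both libraries and gave a comparison within 1 cluster. The same 33 members had 1003 CPM (917 to 1094) in its 333 cells at 9 h against 2181 CPM (2131 to 2232) in its 1532 cells at 2 h. The neutrophil-like clusters that were mostly of 9 h had 573 to 653 CPM. The share of cells with 3 or more members within cluster 5 was 13.4% at 9 h against 38.6% at 2 h. Within it, 11 of 18 measured members were at least 2-fold lower at 9 h, against 2.17% of 2951 genes. Over all neutrophil-like cells these were 14 of 21 members and 5.90% of genes. The unnamed cluster of 756 cells at 9 h, which carried neutrophil markers, had 685 CPM.

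**Figure D4:**
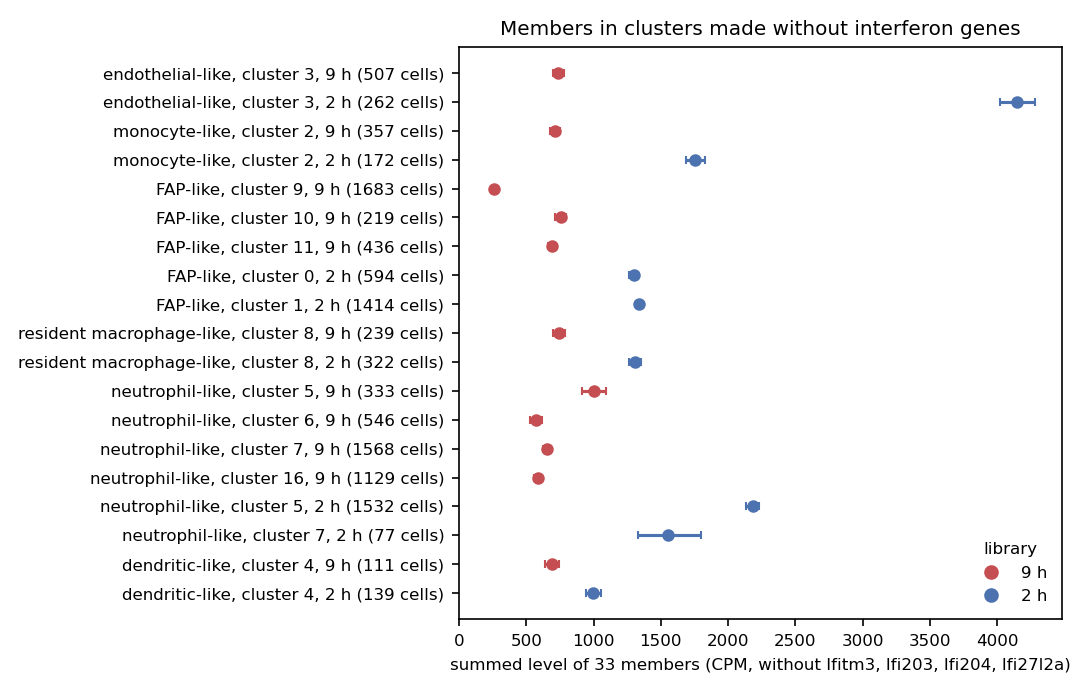
Summed level (CPM) of 33 members, without Ifitm3, Ifi203, Ifi204 and Ifi27l2a, in each cluster with at least 50 cells of a library, red for 9 h and blue for 2 h, with bars for the 95% counting interval. The endothelial-like point at 2 h lies at 4148 CPM, and within each class every 9 h point lies below every 2 h point.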

How the data were processed

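The deposited files hold UMI counts per gene and cell barcode for 1 library at each time, as the authors' run of Cell Ranger 5.0.0 (build mm10) wrote them, per the file headers and the submitters' processing notes. Neither the annotation release nor any further filter is stated in what was used here. The 9 h library held 8790 barcodes and 36042307 UMIs, and the 2 h library 5729 barcodes and 28635763 UMIs. Barcodes with at least 200 genes, at least 500 UMIs and at most 20% mitochondrial UMIs were kept.

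Cells of both libraries were clustered together in Scanpy 1.11.5 (2000 variable genes, 30 components, 15 neighbours, Leiden resolution 1), with the members and other interferon genes, 121 in all, left out. Clusters were named from 20 marker lists where at least 3 markers were seen in at least 10% of cells, and 1 cluster stayed unnamed. Of the kept cells, Scrublet marked none at 9 h and 6 (0.122%) at 2 h as doublets, so its calls were set aside, and the cells with the highest scores were left out as an alternative.

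UMI counts were summed per class and library. The pseudocount was 10 CPM, the threshold 2-fold and the minimum 100 UMIs over both libraries. Intervals for levels are exact Poisson, for ratios exact conditional binomial and for shares Clopper-Pearson. TMM factors came from edgeR 4.0.16. No test was run, since each time has 1 library, and the ratio and interval code was checked on simulated counts. All members could be named. Values are given for members with the top level or an extreme ratio in a class and for at least 1 member of each role group. The members and lists were chosen with earlier results of these data known. Of 32285 gene IDs, 32158 matched GENCODE M21, all 37 members among them. Counts of near copies (Ifit3 and Ifit3b, the Oas1, Ifi200 and Trim30 families) and of 5 members that overlap another gene on the same strand are uncertain.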

Additional observations from a re-analysis of the deposited data

Results flagged for a closer look

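Rsad2 (viperin) moved in opposite directions in monocyte-like and FAP-like cells. The ratio of CPM at 9 h over CPM at 2 h was 3.02 in monocyte-like cells and 0.0739 in FAP-like cells. With 1 library per time, the difference between the classes was not tested. The monocyte-like value at 9 h rests on 111 UMIs, 69 of them in 1 cell. Without the top cell of each library the log2 ratio in monocyte-like cells was 0.46.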

How the results depend on the processing

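Direction was kept throughout: over 73 pairs of a member and a class past 2-fold and 692 values under alternatives, 679 stayed past 2-fold, 13 were under it and 0 changed direction. Of the counts and shares, 128 values stayed close to those reported and 18 moved. With at least 20 UMIs, or with no filter on low counts, 17 members were lower in monocyte-like cells, 13 in resident macrophage-like cells, and 1 was higher in dendritic-like cells. With at least 20 UMIs these were of 32, 33 and 25 measured, where 5.84%, 6.14% and 5.23% of all genes were called alike. With no filter they were of 37, 37 and 36, against 3.32%, 3.55% and 3.17% of all genes. At a threshold of 1.5-fold, 14 of 18 were lower in monocyte-like and 6 of 9 in dendritic-like cells (17.0% and 14.5% of all genes). At that threshold 1 was higher in each of FAP-like, resident macrophage-like and dendritic-like cells. These were of 34, 19 and 9 measured, against 17.6%, 13.5% and 13.4% of all genes. With a pseudocount of 1 CPM, 1 of 34 (Ifi209) was higher in FAP-like and 1 of 9 in dendritic-like cells (14.2% and 7.03% of all genes). With mitochondrial UMIs up to 10%, 1 of 9 was higher in dendritic-like cells (6.10% of all genes). In endothelial-like cells, 14 of 16 measured at Leiden resolution 2 and 15 of 19 with mitochondrial UMIs up to 10% were lower, in place of 20 of 24. Of all genes, 8.85% and 9.06% were lower there, in place of 7.97%. At Leiden resolution 2, 4 of 12 were lower in resident macrophage-like cells (9.72% of all genes). At 0.5 this class and the dendritic-like one got no name and so no values. The member higher in monocyte-like cells, Rsad2, was lost (0 higher) without the cells of highest doublet score or without each gene's top cell. The second of these alternatives, and those on clusters and on shared barcodes, were chosen after seeing the data. Without the Saa1 cluster, 1 of 34 members was higher in FAP-like cells (8.32% of all genes). The share of these cells with 3 or more members at 9 h was 24.5%. Within cluster 5 alone, that share in neutrophil-like cells at 9 h was 13.4%. Thinned to 2000 UMIs, the share was 52.8% at 9 h against 75.9% at 2 h in FAP-like cells and 19.5% against 66.0% in neutrophil-like cells. With no thinning it was 86.4% against 94.2% and 18.6% against 61.8%. In FAP-like cells, the share of all genes past 2-fold was 18.9% lower and 14.2% higher with a pseudocount of 1 CPM. Filters and thresholds change by construction how many genes are counted, and for the other moves the cause was not tested. No paired analysis was possible because each time has 1 library. Depth limits the rest: members under 100 UMIs, 28 of 37 in dendritic-like cells, have no call.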

Other observations

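Smaller classes were left out of the counts because a library held fewer than 100 of their cells. The 33 members without the 4 most abundant came to 179 CPM at 9 h against 518 CPM at 2 h in satellite-like cells (68 and 81 cells). They came to 298 against 963 CPM in tenocyte-like cells (60 and 80 cells) and to 421 against 954 CPM in T or NK-like cells (36 and 102 cells). They came to 334 against 1262 CPM in pericyte or smooth muscle-like cells (32 and 32 cells) and to 306 against 1078 CPM in glial-like cells (18 and 11 cells). In B-like cells the sum was higher at 9 h, at 1437 against 652 CPM, but 4 cells made up the 9 h value and 45 the 2 h value.

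Among interferon genes outside the list, Ifi205, of the DNA-binding Ifi200 family, had 177 CPM at 9 h against 21.9 CPM at 2 h in endothelial-like cells, where most listed genes were lower. Jak2, a kinase of the interferon gamma receptor, had 229.5 CPM at 9 h against 97.7 CPM at 2 h in neutrophil-like cells and 117 against 52.8 CPM in monocyte-like cells. Socs3 had 378 CPM at 9 h against 223 CPM at 2 h in neutrophil-like cells, within 2-fold, while it was lower at 9 h in endothelial-like and FAP-like cells. These values have no replicate check.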
